A study of Mus musculus with 4 samples.

Results

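The choroid plexus spots of 4 mouse brain sections were described here. They were chosen by measured values: among spots with at least 500 counts, the log-transformed counts per 10000 of Ttr (transthyretin), Kl (klotho) and Folr1 (folate receptor alpha) were z-scored over all kept spots, and a spot was a member where the mean of the 3 z-scores, called its marker score, was at least 2. The rule took 232 of 12601 kept spots. The sections came from 2 wild-type mice and 2 mice heterozygous for Celsr3, which encodes an adhesion receptor of the cadherin family, and no mouse was treated. All 4 brains were trimmed to expose the striatum and embedded in paraffin after formalin fixation, and gene probes were captured on a grid of barcoded spots with the Visium CytAssist assay. The age and strain of the mice, and the kind of Celsr3 allele, are not given in the sources used here.

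The ending of each spot barcode splits the spots into 4 barcode sets, numbered 1 to 4, and 0 of them could be tied to a mouse or genotype from the labels. No genotype was compared, and values are given set by set, with 95% intervals that cover counting error only. Each spot covers several cells, often of different types, so fewer cells of a type and less RNA per cell cannot be told apart. Probes read part of each transcript, so levels were compared between areas for each gene and never between genes.

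The choroid plexus is a fringe of tissue in the brain ventricles. A single layer of ciliated epithelial cells, joined by tight junctions, covers a core of fibroblasts and leaky, fenestrated capillaries. The epithelium secretes cerebrospinal fluid by moving ions and water, carries hormones and vitamins between blood and fluid, and releases proteins such as transthyretin and insulin-like growth factor 2.

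The members were unevenly spread over the sets. Set 1 held 102 member spots among 3055 kept spots (3.34%, exact Clopper-Pearson interval 2.73 to 4.04). Set 3 held 115 of 3444 (3.34%, 2.76 to 3.99). Set 4 held 12 of 3294 (0.364%, 0.188 to 0.635) and set 2 held 3 of 2808 (0.107%, 0.022 to 0.312). The intervals of sets 1 and 3 overlapped, and both shares lay above the intervals of sets 2 and 4. The part of the cutting plane and the trimming in these shares was not tested. Member barcodes, which mark positions on the grid, were also compared: 3 were members in both sets 1 and 3, 1 in both sets 1 and 2, and 0 in the other pairs. All 102 member barcodes of set 1 were kept in set 3, where 3.34% of all kept spots were members. Only 1 of the 12 member barcodes of set 4 was kept in set 1, and 1 in set 2. Nothing is therefore read from these counts.

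Depth inside the member spots differed between sets. Their summed counts over sets 1 to 4 were 8140549, 26073, 6661224 and 264647. The median count per member spot was 73816.5 in set 1 and 53600 in set 3, above the 52111 and 44652 of the other spots there. It was 8101 in set 2 and 19482 in set 4, below the 38201 and 26468 of the other spots. The values of sets 2 and 4 therefore rest on far fewer counts.

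The rule genes describe the choice and are not results. Ttr, the thyroxine and retinol carrier, made up a median of 5.49%, 0.138%, 7.08% and 19.4% of a member spot's counts in sets 1 to 4, and up to 39.6% in a spot of set 3. Ttr was also counted in 88.1%, 18.7%, 82.5% and 35.0% of the other spots of sets 1 to 4, at 289, 11.3, 256 and 35.8 counts per 1000000 counts (CPM). Of all Ttr counts, 96.2%, 6.07%, 96.0% and 93.9% lay in the members. Membership was graded at its limit: the 21 spots with a score of 2.0 to 2.2 had a median of 7656 CPM of Ttr, 37.2 of Kl and 37.3 of Folr1, and the 23 spots at 1.8 to 2.0 had 7565, 35.4 and 30.9 CPM. A score of 7 or more was reached by 38 members of set 1, 0 of set 2, 38 of set 3 and 9 of set 4. A set 4 member with Ttr at 227 CPM passed through the other rule genes.

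The label was checked against 30 other genes known from choroid plexus epithelium, none of them in the rule. Their summed level per member spot ran from 1646 to 47276 CPM in set 1, with a median of 9705, and from 1267 to 45029 CPM in set 3, with a median of 9130. In set 4 the median was 46363 CPM, and 3 members at lower scores stood apart from the 9 others. Enpp2 alone was at 20699, 20033 and 26286 CPM in the spots of score 7 or more of sets 1, 3 and 4. The sums of the 30 genes there were 36474, 33487 and 48909 CPM, so sums of this list, here and below, mostly follow Enpp2. Over all other spots the sums were 561, 412, 451 and 434 CPM in sets 1 to 4. The 3 spots of set 2 held 786, 1283 and 2222 CPM, and 19 of the 30 genes had 0 counts there, among them Aqp1, Kcnj13, Kcne2, Cldn2, Tmem72, Slc4a5, Otx2 and Prlr. A count of 0 in 26073 allows up to 3 counts, or 115 CPM. With most of the 30 genes uncounted, the label was not borne out in set 2. All 3 spots also passed the threshold of ventricle-lining spots, with Foxj1 at 422 CPM, as did 59, 56 and 7 members of sets 1, 3 and 4. Single members of other sets had sums as low, down to 1267 CPM in set 3 and 1398 and 2269 CPM in set 4. The label is weak in such spots too. Set 2 is given but was not used in the calls below. Set 4 entered them with 12 members, of which 9 had a score of 7 or more.

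**Figure D1:**
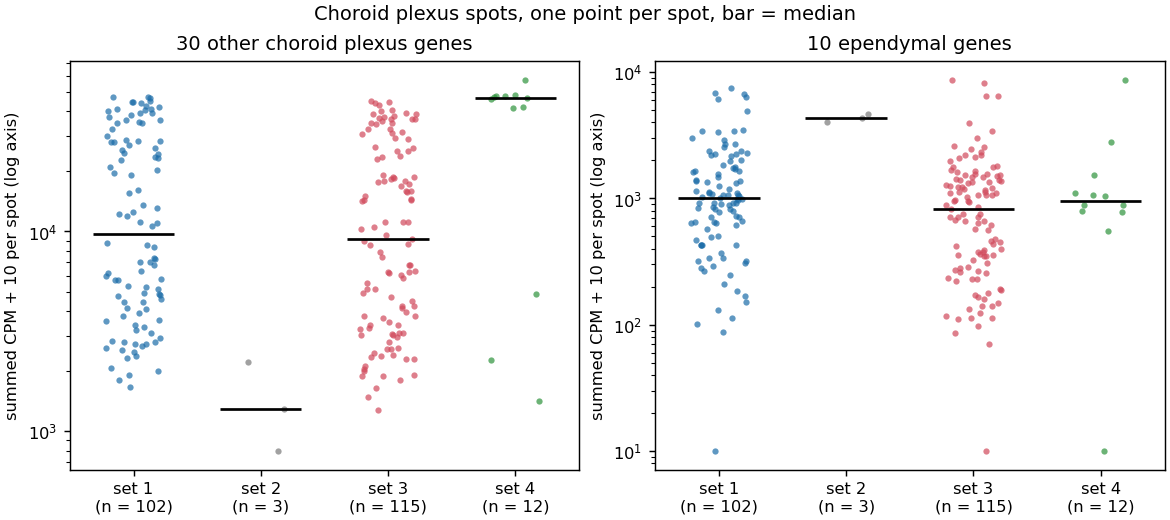
Summed CPM plus 10, on a log axis, of 30 choroid plexus genes (left) and 10 ependymal genes (right) in each member spot of the 4 barcode sets, with the median as a bar. The 3 spots of set 2 lie at the bottom of the left panel, at 786 to 2222 CPM, and near the top of the right one, at 4028 to 4620 CPM.

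Each gene was compared between the summed counts of member spots and those of all other spots of the same set. It was called higher or lower where log2(CPM + 10) differed by at least 1 in each of sets 1, 3 and 4, the sets with at least 10 members. This scale understates the change of low genes. Of 10691 genes that averaged 10 CPM or more, 655 (6.13%) were called higher and 614 (5.74%) lower. All 30 choroid plexus genes were called higher, with a median log2 ratio of 3.95 against -0.15 for all genes tested. The rule used this same contrast, so nothing is read from these counts and no test was made. In set 2, the list median was -0.09.

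**Figure D2:**
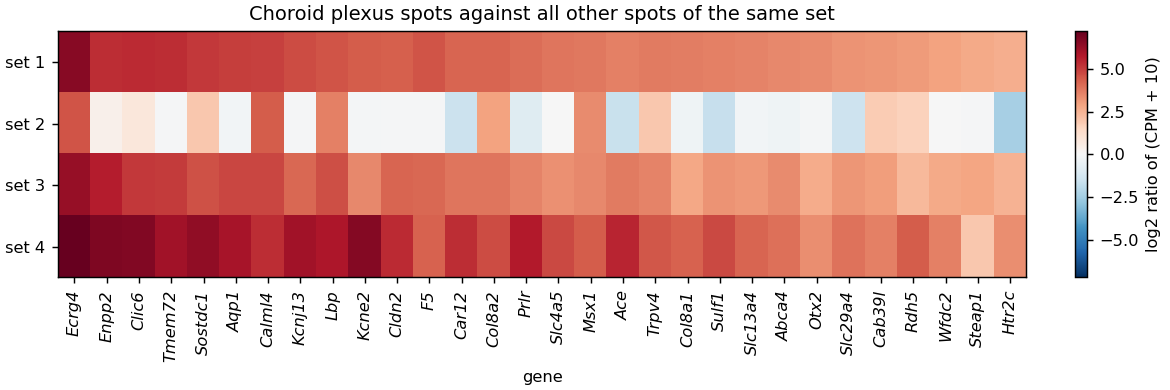
Log2 ratio of CPM plus 10, member spots over all other spots of the same set, for 30 choroid plexus genes ordered by their median over sets 1, 3 and 4. Every cell of sets 1, 3 and 4 is above 0, and set 2 has values on both sides of 0.

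Aqp1, the water channel of the apical membrane, stood at 353 CPM in set 1 (exact Poisson interval 340 to 366), and the spots of set 2 had 0 counts. The level was 303 in set 3 (290 to 316) and 669 in the spots of set 4 (574 to 775). The other spots held 1.38, 1.30, 1.33 and 1.17 CPM. The ratios to the other spots were 255 (223 to 294), 227 (197 to 263) and 571 (446 to 733) in sets 1, 3 and 4. In single member spots of set 1 Aqp1 ran from 0 to 935 CPM with a median of 137, and in set 4 from 0 to 1411 with a median of 672.

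Kcnj13, an inward rectifier potassium channel, was at 271, 0, 178 and 710 CPM in sets 1 to 4, against less than 1 CPM in the other spots of each. Kcne2, an accessory subunit of potassium channels, was at 206, 0, 105 and 1081 CPM, against 0.588, 0.976, 0.454 and 1.32. Set 4 was the highest of the sets for both channels. Clic6, a chloride channel protein, was at 1281, 115, 1549 and 4587 CPM against 20.9, 61.5, 35.5 and 36.0 elsewhere, so it was higher in sets 1, 3 and 4. The set 2 level rests on 3 counts, and its interval (23.7 to 336) held the level of the other spots.

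Of 29 ion and water transport genes, 28 passed the filter, 14 were called higher and 0 lower (median log2 ratio 1.16). Here and for each list below, the shares over all genes tested were 6.13% called higher and 5.74% lower. Some of these genes also belong to the list of 30. The bicarbonate carriers Slc4a5, Slc4a2 and Slc4a10 had median log2 ratios of 3.85, 3.37 and 1.19. The membrane carbonic anhydrases Car12 and Car14 had 4.20 and 2.31, and the sodium, potassium and chloride cotransporter Slc12a2 had 2.07. Trpv4, a cation channel, had 3.73, and Stk39, a kinase that regulates chloride cotransporters, had 1.85.

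Fxyd1, a regulator of the sodium pump, was called higher, and reached 1166, 1091 and 1402 CPM at scores of 7 or more in sets 1, 3 and 4. Atp1b1, a beta subunit of the pump, had a median log2 ratio of -0.75 and was not called.

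Of the junction and cytoskeleton genes, 12 of 18 passed and 8 were called higher, 0 lower (median 2.01). Cldn2, the claudin that forms cation pores between epithelial cells, was at 203, 0, 188 and 438 CPM against 0.594, 0.538, 0.650 and 0.796. Cldn1, a sealing claudin, had a median log2 ratio of 3.10, Cldn3 had 1.43 and the scaffold gene Tjp3 had 2.17. Cldn5, the claudin of the blood-brain barrier, was on the other side of 0, at 29.7, 0, 15.2 and 3.78 CPM against 48.4, 66.0, 31.7 and 72.8. Its log2 ratios were -0.56 in set 1 and -0.73 in set 3, the level of set 4 rests on 1 count, and 0 counts in set 2 allow a level above that of the other spots.

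Carriers of hormones and nutrients were counted next. Of 22 barrier and nutrient transporters, 19 passed and 7 were called higher, 0 lower (median 0.96). Slco1c1, a thyroxine carrier, was at 310, 115, 260 and 480 CPM in sets 1 to 4 against 52.4, 52.7, 47.2 and 45.5 in other spots (median log2 ratio 2.36). On the same scale, the sulfate carrier Slc13a4 had 3.59 and the monoamine carrier Slc29a4 had 3.22. The efflux pump of brain capillaries, Abcb1a, had -0.70 and was not called.

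Of 15 genes of retinoid and thyroid hormone handling, 11 passed and 6 were called higher, 0 lower (median 1.42). List medians here are against all other spots, and those against lining and meningeal spots are given below. The retinol receptor Stra6 had a median log2 ratio of 2.41 and the retinol dehydrogenase Rdh5 had 3.07. Of 14 metal handling genes, 11 passed and 3 were called higher: the copper importer Slc31a1 (2.94), the copper pump Atp7a (1.88) and the copper oxidase Cp (1.82). Trf, transferrin, had 0.05.

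Secreted proteins held several of the highest ratios. Of 23 genes, 22 passed and 13 were called higher, 0 lower (median 1.55). Ecrg4, which encodes a secreted peptide precursor, was at 1398, 268, 969 and 1916 CPM against 4.81, 2.29, 2.90 and 3.25. It was high in all 4 sets, although set 2 rests on 3 spots in which the label was not borne out. Enpp2, the enzyme autotaxin that makes lysophosphatidic acid, was at 12684, 230, 11479 and 23318 CPM against 309, 173, 219 and 209. Igf2 was at 1085, 0, 1040 and 2169 CPM against 24.5, 26.4, 20.5 and 31.99, and its binding protein Igfbp2 had a median log2 ratio of 5.25. Sostdc1, an antagonist of bone morphogenetic proteins, had 5.07, and Bmp6 and Bmp7 had 3.03 and 1.55.

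Of 19 receptor genes, 15 passed and 5 were called higher, 0 lower (median 0.47). Prlr, the prolactin receptor, was at 309, 0, 267 and 967 CPM against 9.30, 8.09, 13.2 and 9.02. Htr2c, a serotonin receptor known from this epithelium and from neurons, was at 474, 0, 416 and 582 CPM against 69.8, 41.7, 64.7 and 48.4. The leptin receptor Lepr had 1.99. Among the regional transcription factors, 15 of 18 passed and 4 were called higher: Otx2 (3.37), Msx1 (3.78), Lmx1a (2.07) and Foxj1 (2.92). Otx2, which specifies and maintains this epithelium, was at 111, 0, 59.6 and 106 CPM.

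By the smallest log2 ratio over sets 1, 3 and 4, the 25 leading genes held 18 of the list of 30, and 5 were in no list: Mfrp, Drc7, Pcolce, Col9a3 and Prelp. Mfrp, a membrane protein with a frizzled-related domain, was at 428, 0, 359 and 563 CPM against 0.918, 0.730, 0.997 and 0.995. Col9a3, a collagen IX chain, was at 452, 153, 411 and 1651 CPM against 27.0, 42.6, 27.2 and 35.9. Drc7 encodes a part of the dynein regulatory complex of cilia and had a median log2 ratio of 4.68. Genes of lowest ratio included Slc17a7 (-4.63), a vesicular glutamate transporter, Cck (-4.25) and Nrgn (-3.37).

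Cilia genes were also high. Of 19 multiciliation genes, 15 passed and 12 were called higher, 0 lower (median 2.92). Foxj1, the regulator of motile cilia, was at 107, 422, 66.2 and 208 CPM against 5.44, 7.05, 3.69 and 14.6. Cfap126 was at 134, 422, 83.6 and 151 CPM, Pifo at 84.6, 38.4, 61.7 and 34.0, and the tektin gene Tekt4 at 23.7, 153, 19.1 and 22.7. Foxj1, Cfap126 and Tekt4 were highest in set 2, whose levels rest on 26073 counts in 3 spots. Among sets 1, 3 and 4 alone, 27 of the 30 choroid plexus genes were highest in set 4. That count was not made over all genes, and nothing is read from it. Ependymal marker sums moved with the cilia genes, at 1500, 4296, 1174 and 1330 CPM in members against 71.4, 67.3, 57.1 and 114 elsewhere, and their part in the cilia result was not tested.

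The promoters of these cilia genes were searched for the X-box, the paired site of RFX transcription factors, because RFX factors are known regulators of ciliary genes. RefSeq windows (GRCm38.p6) of 300 bases, from 250 before to 50 after the start, were found for 16 of 19 cilia genes and 25 of 30 choroid plexus genes. The motif, GTNNCC followed by any 2 bases and GGNNAC, reads the same on both strands and was in 5 of 21 windows of the cilia genes (23.8%), in 0 of 34 windows of the choroid plexus genes and in 1.88% of all 32851 windows. GTTGCC on either strand, which can overlap an X-box, was in 42.9%, 14.7% and 12.5%. TAATCC on either strand, a site of OTX factors, was in 9.52%, 8.82% and 7.06%, with matches in Abca4, Ace and Otx2 among the choroid plexus genes. These motif spellings were chosen after several had been tried, and a match is a description only. The stretches of Cfap126 (chr1:171122938-171123001, plus strand), Pifo (chr3:106001498-106001542, minus strand) and Tekt4 (chr17:25471405-25471468, plus strand) show the X-box, in capitals, upstream of 3 cilia genes called higher.
Cfap126: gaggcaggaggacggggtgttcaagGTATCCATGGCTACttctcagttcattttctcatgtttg
Pifo: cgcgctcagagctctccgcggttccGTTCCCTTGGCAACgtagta
Tekt4: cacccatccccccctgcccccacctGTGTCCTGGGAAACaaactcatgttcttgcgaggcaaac

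Choroid plexus spots were then set against 2 other kinds of spot, which were chosen for the tissues that border the plexus or share its cell types. Ventricle-lining spots (229 in all) had a mean z of at least 2 for the ependymal genes Ccdc153, Tmem212 and Foxj1, and meningeal spots (349) for the fibroblast genes Col1a1, Col1a2 and Dcn. Neither kind included a member. Members overlapped with both thresholds: 59, 3, 56 and 7 members of sets 1 to 4 also passed the ependymal one, and 22, 1, 9 and 9 the fibroblast one. Against lining spots, 241 of 10934 genes (2.20%) were called higher and 331 (3.03%) lower. Against meningeal spots, 430 of 10884 (3.95%) were called higher and 489 (4.49%) lower. These contrasts also share the member spots that the rule chose, and no test was made.

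All 30 choroid plexus genes were called higher than in lining spots (median log2 ratio 3.43), and 29 were called higher than in meningeal spots. The exception was Slc13a4. Of 14 multiciliation genes that passed, the 3 genes of the lining rule left out, 0 were called higher and 0 lower than in lining spots (median -0.29). Lining spots were chosen by high levels of genes from this same list, so nothing is read from that count. Of the 12 such genes past the filter against all other spots, 9 had a median ratio to lining spots below 0. Aqp1 had log2 ratios of 4.63, 4.85 and 5.66 over lining spots in sets 1, 3 and 4, while Rfx2 had -0.09, -0.41 and -0.28 and Tekt1 had 0.31, -0.28 and 0.34. Calml4, Lbp and Col8a2 lay closer to lining spots than the other epithelial genes, with ratios of 1.40, 1.21 and 1.31 in set 1. Other list medians over lining and meningeal spots stand beside -0.22 and -0.16 for all genes tested. They were 1.51 and -0.44 for retinoid and thyroid hormone handling, -0.06 and -0.05 for metal handling, and 0.02 and 0.14 for receptors. Antigen presentation and interferon genes had 0.33 and -0.44, and regional transcription factors 0.21 and 0.32. Transport had 1.28 and 1.08, junctions 1.25 and 1.91, carriers 0.79 and 0.57, and secreted proteins 1.26 and 0.48.

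**Figure D3:**
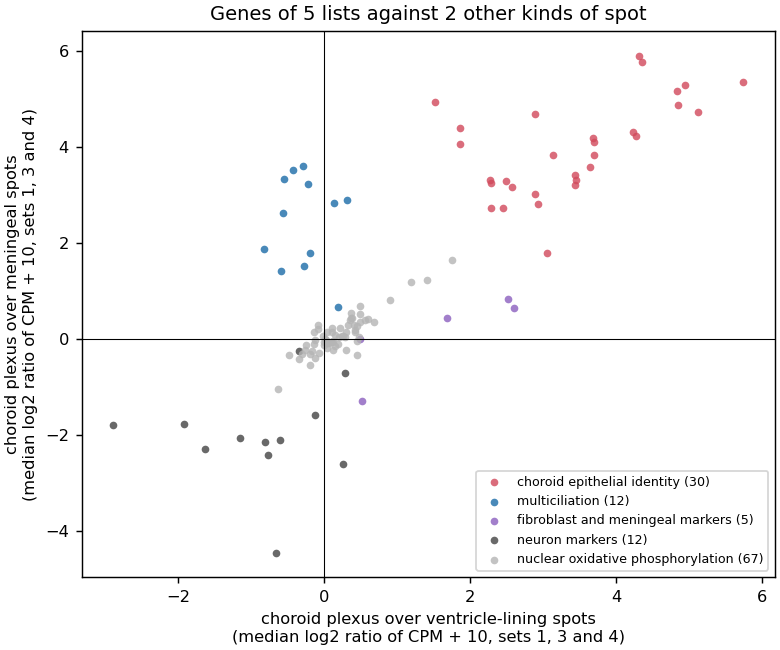
Median log2 ratio of CPM plus 10 over sets 1, 3 and 4, member spots over ventricle-lining spots (horizontal) and over meningeal spots (vertical), for the genes of 5 lists that passed the filter. The 30 choroid plexus genes lie above 0 on both axes. Cilia genes lie near 0 on the horizontal axis and above 0 on the vertical one.

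Markers of other cell types were counted in the same way, beside 6.13% of all genes tested called higher and 5.74% lower. Of 12 neuron markers, 9 were called lower and 0 higher (median -2.03). Their summed level was 1913, 4219, 3128 and 1016 CPM in members against 9385, 10339, 10165 and 10489 in other spots of sets 1 to 4. Of 10 astrocyte and 10 oligodendrocyte markers, 0 were called in either direction, and the oligodendrocyte sum differed widely between sets, at 18582, 1151, 7125 and 2619 CPM. The 9 ependymal markers that passed were all called higher (median 3.23). These markers are partly the cilia genes above.

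The stroma was seen as well. Of 10 fibroblast markers, 8 passed and 4 were called higher: Col1a2, Dcn, Lum and Ogn. Their list median was 1.60 in set 1, 0.99 in set 3 and 3.12 in set 4. Plvap, which forms the diaphragm of fenestrated capillaries, was at 52.7, 0, 38.4 and 276 CPM against 0.414, 0.547, 0.385 and 0.884, and was the only one of 4 fenestrated endothelial markers called. General endothelial, mural and macrophage markers had list medians of 0.01, 0.24 and -0.38, with 0 called in either direction. The endothelial median was -0.08 where spots were averaged in place of summed.

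Gene list sums were also followed over bands of the marker score. The bands use the same values that chose the members, so their trends describe the choice and no test was made. In set 1 the summed level of the 30 choroid plexus genes was 1931 CPM at scores of 1 to 2, 3838 at 2 to 4, 12563 at 4 to 7 and 36474 at 7 or more. Set 3 had 1393, 3100, 10810 and 33487. The neuron sum ran the other way, from 4329 to 797 CPM in set 1 and from 5964 to 1180 in set 3. Ependymal markers were highest at 4 to 7 in set 1 (1815 CPM), while in set 3 they lay between 1091 and 1241 CPM in all 3 member bands. The oligodendrocyte sum was largest just outside the limit in set 1, at 50492 CPM, and was 5295 CPM at scores of 7 or more. In set 3 it was 14348 CPM at 0 to 1, 13935 at 1 to 2 and 2788 at 7 or more, with no such peak.

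**Figure D4:**
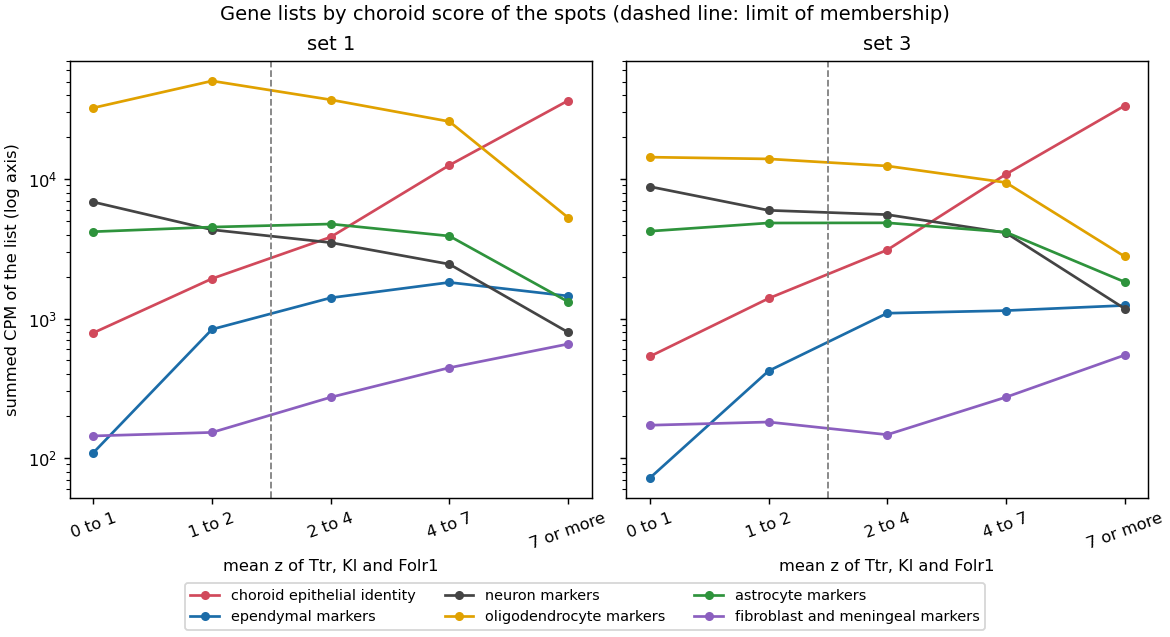
Summed CPM, on a log axis, of 6 gene lists in spots grouped by marker score in sets 1 and 3; the dashed line is the limit of membership. Choroid plexus genes are higher in each further band and reach 36474 and 33487 CPM, whereas neuron markers are lowest in the last band, at 797 and 1180 CPM.

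Across single member spots, the summed choroid plexus genes and the neuron markers had a Pearson r of -0.61 in set 1 (102 spots) and -0.63 in set 3 (115 spots). The astrocyte markers had -0.76 and -0.69, the fibroblast markers 0.62 and 0.77, and the ependymal markers 0.41 and 0.57. The choroid plexus sum also had an r of 0.54 and 0.61 with the counts per spot. These spots share a library and their shares of counts are not independent of each other, so the values are descriptions.

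Among the spots of score 7 or more, sets 1, 3 and 4 could be compared with less admixture of neuron markers, over 4238440, 3118056 and 233964 counts. Of the 30 genes, 20 were highest in set 4, 8 in set 1 and 2 in set 3. The interval of set 4 over set 1 lay above 1 for 13 genes, held 1 for 14 and lay below 1 for 3. The same counts were not made over all genes, so nothing is read from them. Kcne2 differed most plainly: it was at 347 CPM in set 1, 181 in set 3 and 1222 in set 4, a ratio of 3.52 (exact conditional binomial interval 3.09 to 4.00) for set 4 over set 1. Set 1 also exceeded set 3, with a ratio of 1.92 (1.74 to 2.12). Steap1, a membrane protein of the STEAP family, ran the other way, at 98.6, 115 and 34.2 CPM. Its level in set 4 rests on 8 counts (interval 14.8 to 67.4 CPM). For Htr2c the ratio of set 4 to set 1 was 0.864, and its interval held 1 (0.729 to 1.02).

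Of 8 fibroblast markers, the interval of set 4 over set 1 lay above 1 for 6 and held 1 for 2, Ogn (0.781, 0.479 to 1.21) and Pdgfra (0.900, 0.497 to 1.51). This count too has no share over all genes beside it, and nothing is read from it. Lum, a proteoglycan of fibroblasts, was at 41.1, 22.8 and 239 CPM in these spots of sets 1, 3 and 4, and Plvap at 85.2, 69.0 and 312 CPM. The haemoglobin gene Hbb-bs was at 4.25, 1.92 and 248 CPM, and it was also higher in the other spots of set 4 (60.5 CPM) than in those of sets 1 and 3 (7.03 and 2.94). Of the 9 such spots of set 4, 8 also passed the fibroblast threshold. Slc6a13, a marker of barrier cells of the meninges, had 4, 2 and 0 counts there. The part of stroma and blood in the higher levels of set 4 was not tested. The sets are single sections, their genotypes are unknown here, and their depth differed, so these differences separate libraries only.

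**Figure D5:**
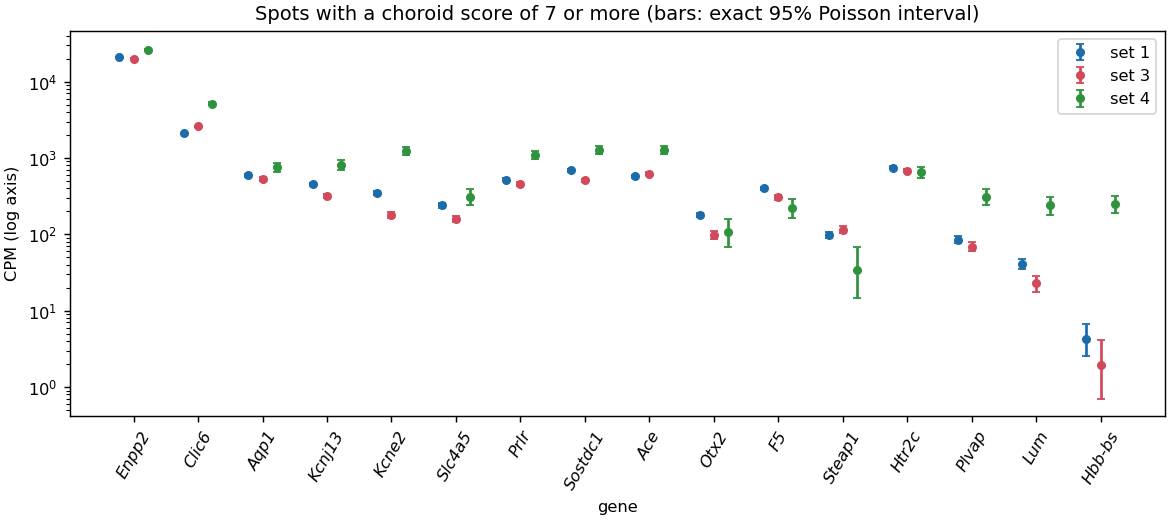
CPM, on a log axis, of 16 genes in the spots of marker score 7 or more of sets 1, 3 and 4, with exact 95% Poisson intervals for counting error. Kcne2, Plvap, Lum and Hbb-bs are highest in set 4, and Steap1 is lowest there.

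The Celsr genes were given because Celsr3 is the gene altered in the study. Celsr1, a planar polarity cadherin, was at 30.7, 76.7, 29.0 and 37.8 CPM in members of sets 1 to 4 against 3.50, 3.22, 5.12 and 2.97 in other spots. It was the only one of 12 planar polarity genes called higher. Over all genes tested 6.13% were called higher, so nothing is read from that count. The value of set 2 rests on 3 spots, of which 1 held a count. Against lining spots Celsr1 was called neither higher nor lower. Celsr2, its relative, was at 73.8, 115, 102 and 64.2 CPM against 189, 172, 204 and 158, with log2 ratios of -1.25, -0.54, -0.93 and -1.18, and the set 2 level rests on 3 counts. Celsr3 was at 18.3, 38.4, 15.3 and 3.78 CPM against 32.4, 46.8, 26.5 and 47.3. It was lower in sets 1 and 3, but not by 2-fold, and the levels of sets 2 and 4 rest on 1 count each.

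Lists of general cell state were counted last. Of 67 nuclear oxidative phosphorylation genes that passed, 2 were called higher, Cox7a1 and Cox8b, and 0 lower (median -0.08, and 0.15 with totals that leave out the rule genes). Of 16 clock genes, 0 were called higher and 1 lower, Hlf (-1.44). None of 15 immediate-early genes was called (median -0.41). Over all genes tested, 6.13% were called higher and 5.74% lower. Nothing is therefore read from the counts in the oxidative phosphorylation, clock and immediate-early lists. Of 8 antigen presentation and interferon genes that passed, 3 were called higher and 0 lower (median 0.91): Ifi27 (2.34), Bst2 (2.59) and Vcam1 (2.06). Over meningeal spots the median of this list was -0.44.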

How the data were processed

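The authors deposited 1 table of raw counts, whole numbers for 19465 genes in 12602 spots. Space Ranger and Seurat are named in the submitters' processing notes; versions, genome build, probe set and spot filters are not given in the sources used here. Spots with under 500 counts (1 spot) were left out. No doublet caller was run and no cell-type makeup was estimated.

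Counts were summed over member spots and over other spots of each set and scaled to 1000000 (CPM). Ratios used log2(CPM + 10) for genes averaging 10 CPM or more over the members and the rest. Intervals are exact (Poisson, Clopper-Pearson, conditional binomial) at 95% and cover counting error only. With no mapped replicates there was no test. The same 2-fold call was tried on simulated data, with 100 of 10170 genes raised and 100 lowered 4-fold. Of these, 99% and 83% were recovered, and 0 unchanged genes were called. The simulation drew Poisson counts from the pooled profile of each set, with no spread between spots and no mix of cell types. It therefore covers counting error only, and does not measure false calls among the genes called here. Between sets, the chi-square per degree of freedom of member counts ranged from 2.55 to 16.9, far above sampling noise, so no library was repeated.

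Members and gene lists were chosen with earlier results of these data known. Named genes are the rule genes, the highest, lowest and defining members of each list, the 25 highest and 10 lowest genes, the Celsr genes and the 10 genes of widest range over sets; others named were chosen after their values were seen. Alternatives were other thresholds, z-scores within each set, thinning, scaling (TMM and RLE, edgeR 4.0.16 in R 4.3.3), filters and each set left out. The rest ran in Python 3.11.15 with scipy 1.17.1, numpy 2.4.6, matplotlib 3.10.9 and pandas 2.3.3. A few list members are left unnamed and not reported here.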

Additional observations from a re-analysis of the deposited data

How the results depend on the processing

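No paired analysis was possible because neither replicate numbers nor samples can be read from the barcodes. The number of member spots moved with the rule. At a threshold of 3 it was 72 in set 1 and 87 in set 3, and at 1.5 it was 146 in set 3. With z-scores within each set, sets 1 to 4 held 77, 50, 93 and 30 members. With each other set left out in turn set 1 had 88 to 120 members, set 2 had 3 to 5, set 3 had 106 to 129 and set 4 had 11 to 14.

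The 655 genes called higher became 314 with z-scores within each set, where all 4 sets entered the call, and 664 to 752 with a set left out. The 614 genes called lower became 946 at a threshold of 3 (where sets 1 and 3 entered the call), 142 with z-scores within each set, 390 with totals that leave out the rule genes, 364 with the mean over spots and 596 to 803 with a set left out. Among spots of score 7 or more, an alternative added after seeing the data, they were 1820. Leaving the rule genes out of the totals moved the median of all genes from -0.15 to 0.04. The numbers of higher and of lower calls therefore both depend on whether the rule genes are counted in the totals. Of the list medians, 413 values under an alternative lay within a margin of the main one and 22 moved further. The margin was the standard deviation over sets 1, 3 and 4, which is wide where these sets differ. By the same margin, 5979 values of named genes stayed and 651 moved. The medians of 4 lists changed sign over the alternatives: septal markers (-0.86 to 0.20), general endothelial markers (-0.08 to 0.42), red cell markers (-0.18 to 0.74) and oxidative phosphorylation (-0.11 to 0.15). Thinning to 10000 counts left out 3 members of set 4 and 2 of set 2.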

Other observations

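A pair of histone genes, among the 10 genes of widest range over the sets, separated set 4 from sets 1 and 3 inside the choroid plexus spots. Hist1h3c, which encodes a replication-dependent histone H3, was counted in 86 of 102 member spots of set 1 and 90 of 115 of set 3, at 191 and 160 CPM summed. The medians of these spots were 74.5 and 62.2 CPM and the maxima 1851 and 1469, and at scores of 7 or more the summed level was 110 and 188 CPM. It was counted in 15.4% and 13.4% of the other spots there, at 8.41 and 7.33 CPM. In set 4 it was counted in 0 of 12 member spots, where 0 of 264647 counts allows up to 11.3 CPM, and in 3.08% of the other spots. Hist1h3d had 1458 counts in the members of set 1, 1395 in set 3 and 1 in set 4, although it was counted in 58.3% of the other spots of set 4. The other spots of sets 1 to 4 held it at 47.8, 43.4, 65.7 and 38.9 CPM. In the 3 members of set 2 Hist1h3d had 2 counts and Hist1h3c had 0, which allows up to 115 CPM. Probes of histone genes can be shared between close copies, and the part of this and of depth was not tested. The predicted gene Gm10260 was low in set 1 in members and other spots alike, at 3.32 and 2.75 CPM, against 118 and 135 CPM in set 3.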
